A study of Mus musculus with 18 samples.

Results

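The immunoglobulin gene transcripts of sorted mouse lung monocytes and macrophages are described here: every row of the count table annotated as an immunoglobulin V, C, J or D gene, together with Jchain. These were 199 of 21254 genes, of which 172 were V genes (85 in the heavy chain locus Igh, 84 in the kappa locus Igk and 3 in the lambda locus Igl), 12 were constant regions, 12 were J segments and 2 were D segments. They were chosen by their weights on the first principal component of the 18 libraries, which separates the sorted populations, so the differences between populations below are a description with no test. The genotype comparisons were not used in that choice and were tested.

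RNA-Seq was done on 3 populations sorted from perfused lungs of C57BL/6 mice 24 h after nebulization of 12.5 mg Pseudomonas aeruginosa LPS in 5 ml PBS for 15 min, a dose that every group received. All sorted cells were CD45+CD11b+. The recruited monocyte-derived macrophages (moMs) were MHC-II-Ly6C+, the transitional interstitial macrophages (tnsIMs, written trIM in the labels) were MHC-II+Ly6C+ and the mature interstitial macrophages (matIMs) were MHC-II+Ly6C-. Ezr-KOm mice carried floxed Ezr alleles, the gene of the membrane-to-actin linker ezrin, and a Cre recombinase driven from the Cx3cr1 locus, which is active in monocytes and their progeny. WT controls carried the same Cre without floxed Ezr. Each population and genotype had 3 libraries, and the labels do not tie libraries to mice, so p-values measure the spread between these libraries. The study asked whether ezrin loss in these cells changed their gene expression as they matured in the lung.

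Libraries held 16512783 to 48460995 counted reads. Values are given as CPM, counts scaled to library size with edgeR's TMM factors. Ezr lay between 497 and 741 CPM in the 9 WT libraries and between 93.8 and 282 CPM in the 9 Ezr-KOm libraries. The sort markers followed the gates in WT, with Ly6c2 at 470 to 487 CPM in moMs and 33 to 69 CPM in matIMs, and the MHC-II gene H2-Aa at 414 to 647 CPM in moMs and 5690 to 7300 CPM in matIMs. The described gates took CD11c- cells that were not granulocytes and name no marker of B cells.

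An antibody is made of 2 heavy and 2 light chains, and B lymphocytes and the plasma cells derived from them are the cells known to make it. Each B cell joins 1 V, 1 D and 1 J segment in its heavy chain locus and 1 V and 1 J segment in a light chain locus, so a V gene transcribed with a constant region marks a rearranged clone. The heavy chain starts as IgM (Ighm) with IgD (Ighd) and can be switched to IgG, IgE or IgA (Igha), the isotype of mucosal surfaces such as the airway. Jchain links IgA and IgM units into the polymers that epithelium carries into secretions. Monocytes and macrophages bind antibody through Fc receptors but are not known to assemble it.

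Short stretches shared by most V genes lie beside their coding parts. Sequences were read from the GRCm39 genome. A recombination signal follows each V gene: a heptamer, a spacer and a nonamer. The signals of the V gene with the largest mean CPM in each locus are shown 5′ to 3′ on the strand of the gene, with the heptamer and the nonamer window in capitals. They lie directly after Ighv1-81 at chr12:115883860-115883898 (minus strand), Igkv1-110 at chr6:68248252-68248279 (plus strand) and Iglv1 at chr16:18903728-18903766 (minus strand), outside the exons.
Ighv1-81: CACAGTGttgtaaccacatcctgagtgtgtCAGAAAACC
Igkv1-110: CACAGTGatacagaccctaACAAAAATA
Iglv1: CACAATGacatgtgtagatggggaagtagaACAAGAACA
The spacer is 23 bases long in Ighv1-81 and Iglv1 and 12 bases long in Igkv1-110. The heptamer CACAGTG stood directly after 141 of the 172 V genes (82%), comprising 67 of 85 heavy, 74 of 84 kappa and 0 of 3 lambda V genes, and 168 began with CAC.

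The second shared element is the octamer ATGCAAAT, the site that Oct factors and their B cell partner Pou2af1 (OBF-1) are known to use in V gene promoters. It was searched on both strands in the 250 bases before each annotated start. It was present in 134 of 172 V genes (77.9%) and in 1.4% of the 21053 other genes with a sequence, and in no constant region, J segment or Jchain. Both orientations occurred, by locus: heavy chain genes held ATGCAAAT on the coding strand a median of 99 bases before the start, and kappa genes held the reverse complement ATTTGCAT a median of 83 bases before it. Ighv1-81 and Igkv1-110 do not hold these exact letters in that window, so the V gene with the largest mean CPM among those that do is shown for the kappa and lambda loci, with the octamer in capitals. The stretches are chr6:67586593-67586645 (plus strand, octamer 66 bases before the start) for Igkv1-135 and chr16:18904293-18904345 (minus strand, 57 bases) for Iglv1.
Igkv1-135: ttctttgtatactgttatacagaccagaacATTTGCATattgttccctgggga
Iglv1: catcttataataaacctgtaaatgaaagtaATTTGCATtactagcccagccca
A match of letters is a description of the window and does not show that a factor binds there.

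Immunoglobulin transcripts were scarce in moMs, intermediate in tnsIMs and abundant in matIMs. In WT the 199 genes summed to 148 ± 32.5 CPM in moMs (SD, n = 3), to 658 ± 185 CPM in tnsIMs and to 4980 ± 1170 CPM in matIMs. In Ezr-KOm the sums were 102 ± 17.3, 771 ± 256 and 3640 ± 1530 CPM. The 3 populations did not overlap in either genotype, while within each of tnsIMs and matIMs the WT and Ezr-KOm libraries overlapped (3840 to 6170 CPM against 2070 to 5130 CPM in matIMs). In these bulk samples, fewer cells of a type and less RNA per cell cannot be told apart.

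Nearly the whole moM sum was 1 gene, Ighm. Without it, the sums fell to 9.94 ± 6.48 CPM in WT and 10.8 ± 4.11 CPM in Ezr-KOm moMs, whereas WT matIMs kept 4670 ± 1160 CPM. Of the 199 genes, 183 had at most 3 counts in every WT moM library and 141 had none at all. In WT tnsIMs 48 genes, and in WT matIMs 6 genes, stayed at or under 3 counts in every library. The numbers were similar in Ezr-KOm, with 182, 41 and 10 genes.

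Low counts removed 30 of the 199 genes, 24 of them V genes, from the set of 15811 genes tested. Of the 169 that remained, 164 (97%) were higher in every WT matIM library than in every WT moM library, where 22.2% of all genes tested were. In Ezr-KOm 163 were, with 20.7% over all genes. These counts restate the choice of the genes and are given as its size only. Between WT matIMs and tnsIMs 115 of the 169 were higher in every matIM library (16.2% of all genes), and in Ezr-KOm 69 were (15.5%).

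**Figure D1:**
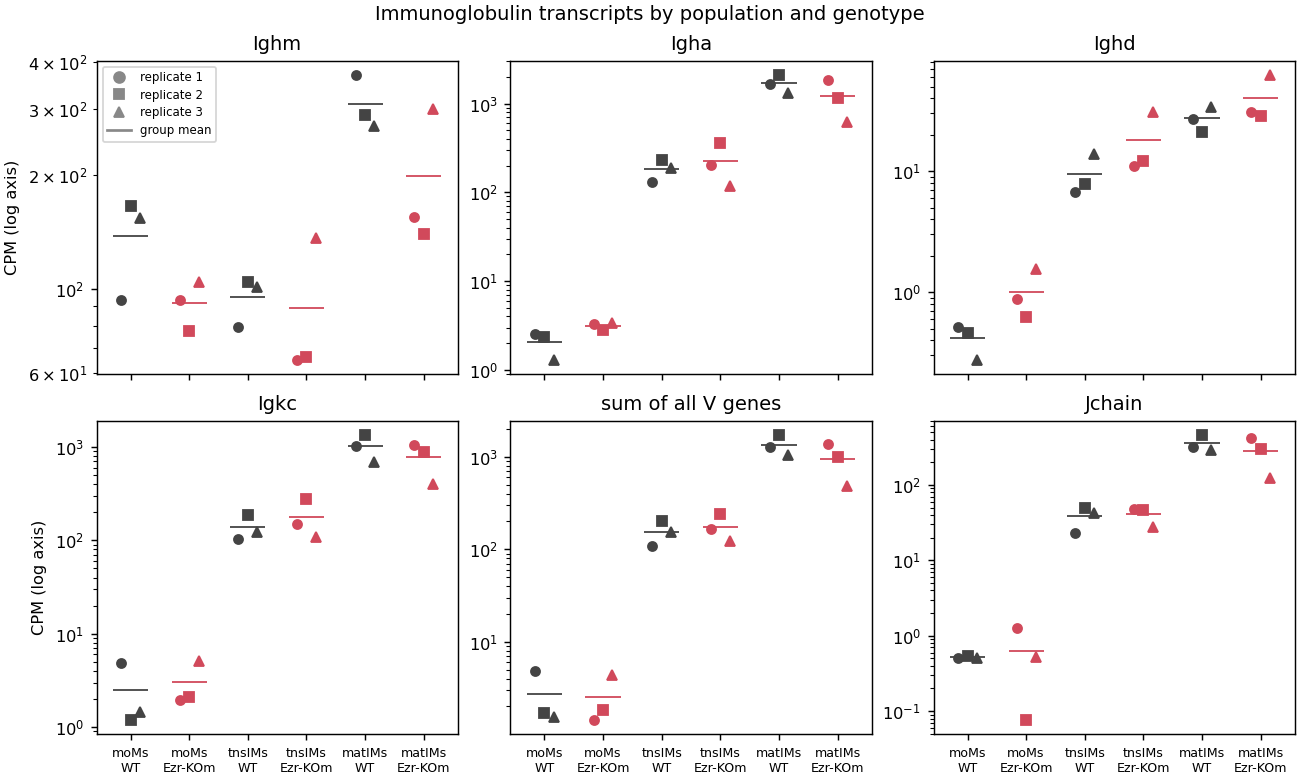
CPM on a log axis for Ighm, Igha, Ighd, Igkc, the sum of all V genes and Jchain in each of the 18 libraries, with 1 column per population and genotype, WT in grey and Ezr-KOm in red, 1 symbol per replicate and a line at the group mean. Igha, Igkc, Jchain and the V sum lie far higher in matIMs than in moMs, while Ighm in WT moMs (93.6 to 166 CPM) overlaps Ighm in WT tnsIMs (79.2 to 105 CPM).

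Among heavy chain constant regions, Ighm encodes the mu chain of IgM. It was at 93.6, 166 and 154 CPM in the WT moM libraries and at 93.7, 77.2 and 104 CPM in the Ezr-KOm moM libraries. In tnsIMs it was at 79.2, 105 and 101 CPM in WT and at 65, 66.2 and 137 CPM in Ezr-KOm. In matIMs it was at 368, 289 and 270 CPM in WT and at 156, 140 and 300 CPM in Ezr-KOm. Its moM and tnsIM libraries overlapped in both genotypes, as for no other constant region but Ighe, which had 0 counts in all of them, and the mean in WT matIMs was 2.24-fold that in WT moMs.

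Igha, which encodes the alpha chain of IgA, had a different course. In WT it was at 2.56, 2.36 and 1.3 CPM in moMs, at 130, 234 and 187 CPM in tnsIMs and at 1667, 2082 and 1330 CPM in matIMs. The mean in WT matIMs was 817-fold that in WT moMs, and the 3 populations did not overlap. In Ezr-KOm, Igha was at 3.26, 2.81 and 3.35 CPM in moMs, at 202, 357 and 119 CPM in tnsIMs and at 1843, 1150 and 619 CPM in matIMs.

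Ighd, the delta chain carried with IgM on mature naive B cells, was at 0.51, 0.46 and 0.28 CPM in moMs, at 6.67, 7.8 and 13.8 CPM in tnsIMs and at 27, 20.9 and 33.9 CPM in matIMs of WT mice. Ezr-KOm libraries held 0.87, 0.62 and 1.54 CPM for moMs, 11, 12.1 and 30.8 CPM for tnsIMs and 30.6, 28.3 and 61.9 CPM for matIMs. Ighd in WT matIMs was 65.9-fold its mean in WT moMs, a far larger ratio than that of Ighm, which is spliced from the same primary transcript in B cells.

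The gamma genes encode the heavy chains of IgG. Ighg2c ranged from 24.2 to 58.1 CPM in WT matIMs and from 15.8 to 81.7 CPM in Ezr-KOm matIMs, and Ighg2b from 23.6 to 26 CPM and from 9.13 to 80.5 CPM. Ighg2b and Ighg2c are similar in sequence, and reads that map to both were not counted, so their split is uncertain. Ighg1 ranged from 2.79 to 19.7 CPM in WT matIMs and from 2.22 to 12.6 CPM in Ezr-KOm matIMs. Ighg3 was at 7.84, 12.5 and 2.16 CPM in WT matIMs and at 2.01, 1 and 0.88 CPM in Ezr-KOm matIMs, and was absent from the counts of all 6 moM libraries. Ighe, the epsilon chain of IgE, had 0 counts in every moM and tnsIM library and at most 5 counts in any matIM library.

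Shares of the heavy chain genes per kilobase of exon put these levels on 1 scale. Ighm made up 97.5% ± 2.49 of the heavy constant signal per kilobase in WT moMs, 38.6% ± 4.37 in WT tnsIMs and 19.5% ± 3.82 in WT matIMs (SD, n = 3). Igha took 1.14% ± 0.632, 51.6% ± 3.61 and 73.9% ± 2.89. In Ezr-KOm the Ighm share was 96.6% ± 0.173, 32.3% ± 17.4 and 19.3% ± 14.4, and the Igha share was 2.35% ± 0.152, 53.5% ± 19.2 and 68.2% ± 14. Within Ezr-KOm, replicate 3 stood apart, and its tnsIM and matIM libraries had Ighm shares of 51.7% and 35.8% against 18% to 27.3% and 9.35% to 12.8% in the other replicates.

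**Figure D2:**
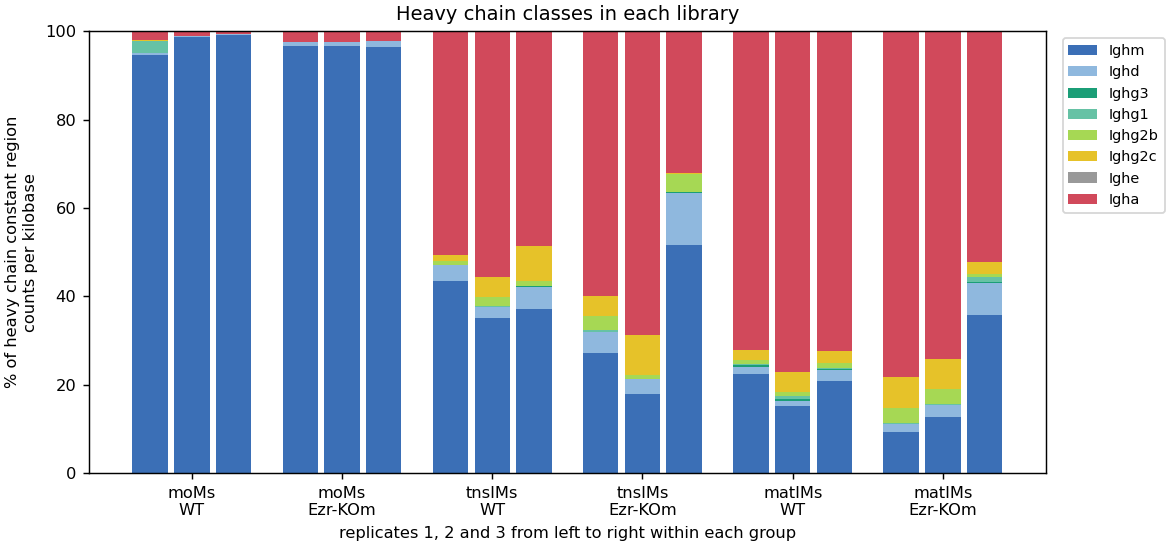
Share of the heavy chain constant region signal per kilobase of exon, in percent, for each library, with 1 stacked bar per library and 1 colour per isotype. Bars of moMs are almost entirely Ighm, and bars of matIMs are mostly Igha, from 52.2% in Ezr-KOm replicate 3 to 78.3% in Ezr-KOm replicate 1.

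Light chain genes followed Igha rather than Ighm. Igkc, the kappa constant region, was in WT libraries at 4.84, 1.2 and 1.46 CPM for moMs, 103, 188 and 124 CPM for tnsIMs and 1021, 1336 and 694 CPM for matIMs. Its mean was 407-fold higher in WT matIMs than in WT moMs, where the whole library held 29 to 85 Igkc counts. In Ezr-KOm matIMs it was at 1041, 889 and 402 CPM. In the Gencode M39 annotation Igkc overlaps 1 long noncoding RNA gene on each strand, and the table does not say which strand was counted.

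Per kilobase of exon, moMs held 73.1 CPM of Ighm against 4.7 CPM of Igkc in WT, and 48.6 against 5.76 in Ezr-KOm. In WT matIMs the order was the reverse, with 164 CPM per kilobase of Ighm and 1910 CPM per kilobase of Igkc. An intact IgM molecule holds equal numbers of heavy and light chains. The moM libraries held mu constant region counts with few light chain counts beside them.

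The lambda constant regions were the minor light chains. Iglc1 was at 94.3, 73.5 and 95 CPM in WT matIMs and at 68, 58.8 and 19.6 CPM in Ezr-KOm matIMs, a split without overlap. Iglc2 ranged from 13.7 to 43.9 CPM in WT matIMs and from 9.35 to 17.6 CPM in Ezr-KOm matIMs, and Iglc3 from 7.63 to 36.9 CPM and from 3.99 to 8.17 CPM. Kappa made up 86.9% ± 4 of the light chain constant counts in WT tnsIMs and 87.9% ± 2.91 in WT matIMs. In Ezr-KOm it made up 91.2% ± 0.153 and 91.7% ± 0.85. Per kilobase of exon, WT and Ezr-KOm values were 86.1% and 90.6% in tnsIMs and 86.8% and 90.9% in matIMs.

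Among WT libraries, Jchain was at 0.51, 0.54 and 0.51 CPM in moMs, at 23.4, 49.4 and 42.4 CPM in tnsIMs and at 317, 456 and 294 CPM in matIMs. In Ezr-KOm matIMs it was at 417, 296 and 124 CPM. In tnsIMs and matIMs it kept close to Igha in amount. There 100 Igha counts came with 20.6 ± 2.39 Jchain counts in WT tnsIMs and 20 ± 6.09 in Ezr-KOm tnsIMs. The ratio was 21 ± 1.73 in WT matIMs and 22.8 ± 2.86 in Ezr-KOm matIMs. In moMs it spread wider, from 20 to 39.4 in WT and from 2.74 to 38.7 in Ezr-KOm. Those libraries held 9 to 13 Jchain counts in WT and 2 to 29 in Ezr-KOm.

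V genes carry the antigen-binding part of each chain. Summed over 172 genes they reached 2.69 ± 1.86 CPM for moMs, 154 ± 45.8 CPM for tnsIMs and 1340 ± 342 CPM for matIMs of WT, and 2.54 ± 1.59, 176 ± 59.4 and 951 ± 445 CPM in Ezr-KOm. A WT moM library held 39 to 85 V counts in all, against 27917 to 40127 in a WT matIM library. Beside 100 heavy constant region counts stood 0.91 ± 0.69 heavy V counts in WT moMs, 18.7 ± 2.31 in WT tnsIMs and 25 ± 1.93 in WT matIMs. The same ratio for kappa was 59.2 ± 9.23, 60 ± 6.25 and 69.9 ± 11 kappa V counts per 100 Igkc counts. In WT the heavy chain ratio thus set moMs apart and the kappa ratio did not. In Ezr-KOm the kappa ratio was 33.3 to 52.1 in moMs, 48.3 to 67 in tnsIMs and 66.5 to 73.1 in matIMs. There moMs lay below matIMs and overlapped tnsIMs. The moM kappa ratios rest on 18 to 54 kappa V counts per WT library and 15 to 61 per Ezr-KOm library. Exons of V genes are short, 338 to 501 bases with a median of 359.

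J segments and D segments contributed little. The 12 J segments summed to 20.7 ± 10.5 CPM in WT matIMs. The segment with the highest mean at each locus was Ighj4 (7.27, 4.06 and 1.94 CPM), Igkj5 (3.06, 2.05 and 1.04 CPM) and Iglj1 (1.2, 0.77 and 0.48 CPM). The 2 D segments, of which Ighd4-1 was the more abundant, had at most 6 counts in any library.

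Many V genes were in use at once in the tnsIM and matIM libraries. At least 1 count was seen for 82 to 84 of 85 heavy V genes and for 82 or 83 of 84 kappa V genes in WT matIM libraries. The effective number of V genes, the inverse Simpson index of their counts, was 18.4 ± 7.98 for heavy chains in WT tnsIMs, 15.4 ± 5.78 in Ezr-KOm tnsIMs, 17.6 ± 7.7 in WT matIMs and 17 ± 4.73 in Ezr-KOm matIMs, and these ranges overlapped. For kappa chains it was 17.8 to 26.5 in WT tnsIMs and 11.2 to 16.6 in Ezr-KOm tnsIMs. In matIMs it was 20 to 23.4 in WT and 13.8 to 14.7 in Ezr-KOm. By this index, in tnsIMs and in matIMs, kappa V use was narrower in every Ezr-KOm library than in any WT library. The index was taken over chosen genes and was given no test. Over V genes with at least 10 counts the tnsIM ranges overlapped (15.1 to 23.7 in WT, 10.2 to 15.6 in Ezr-KOm), while those of matIMs did not (19.9 to 23.3 and 13.8 to 14.3). Depth was not equal, with 13430 to 22230 kappa V counts in WT matIM libraries and 6384 to 21254 in Ezr-KOm matIM libraries.

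The most used V genes recurred across libraries. Ighv1-81 was the leading heavy V gene in 5 of 6 matIM libraries, at 58.4, 126 and 49.2 CPM in WT and at 94.7, 90.8 and 23.9 CPM in Ezr-KOm. Igkv1-110 was at 50.1, 127 and 43.2 CPM in WT matIMs and at 164, 51.2 and 53.9 CPM in Ezr-KOm matIMs. Igkv6-15 (23.6 to 60.7 CPM in WT matIMs), Igkv1-117 (32 to 65.2 CPM) and Igkv6-23 (28.5 to 57.3 CPM) were the next kappa V genes by mean CPM. Of the lambda V genes, Iglv1 was at 113, 70 and 90.1 CPM in WT matIMs, while Iglv2 (7 to 9.75 CPM) and Iglv3 (1.45 to 29.6 CPM) were lower. By family, the 44 Ighv1 genes took 53.4% of heavy V counts in WT matIMs and 59.3% in Ezr-KOm matIMs, and the 6 Igkv1 genes took 22.8% and 25.6% of kappa V counts.

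Other V genes were far higher in 1 matIM library than in the others of its genotype. Ighv5-16 was at 141 CPM in WT matIM replicate 1, or 25.4% of its heavy V counts (Wilson 95% interval 24.6 to 26.2%, which covers counting error only), and at 6.45 and 4.39 CPM in the other WT matIM libraries. Ezr-KOm matIM replicate 1 held it at 26 CPM, or 4.94% of heavy V counts. It took 9.62% in WT tnsIM replicate 1, where the median of the other tnsIM libraries was 0.429%. Ighv1-19 was at 78 CPM in WT matIM replicate 2 and at 3.1 and 7.08 CPM in the others, and took 11.9% of heavy V counts there and 5.01% in WT tnsIM replicate 2. Igkv6-32 was at 95.3 CPM in Ezr-KOm matIM replicate 2, or 15.8% of kappa V counts (Wilson 95% interval 15.2 to 16.3%), and at 28.8 and 1.59 CPM in the others. The share of Igkv6-32 in Ezr-KOm tnsIM replicate 2 was 5.24%, against a median of 0.706% in the other tnsIM libraries. Not every V gene with a large share in 1 matIM library was clearly higher in the tnsIM library of the same number. Igkv6-23 took 9.01% of kappa V counts in Ezr-KOm matIM replicate 2 but 3.93% in Ezr-KOm tnsIM replicate 2, where the median of the other tnsIM libraries was 4.94%, and Igkv8-30 took 11.6% in Ezr-KOm matIM replicate 3 and 5.3% in its tnsIM counterpart, against a median of 5.08%.

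V gene shares were also compared between libraries over all heavy and kappa V genes. Pearson's r of the V gene shares, over the 169 heavy and kappa V genes, was 0.648 to 0.915 between tnsIM and matIM libraries of the same genotype and replicate number, and 0.355 to 0.765 for other pairs. In 5 of 6 tnsIM libraries the matIM library of its own number gave the highest r. The exception was Ezr-KOm tnsIM replicate 3. Genes within a library are not independent replicates. With 3 mice per genotype in the paper, libraries of different populations would share mice. The labels do not say whether same-numbered libraries came from the same mice.

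**Figure D3:**
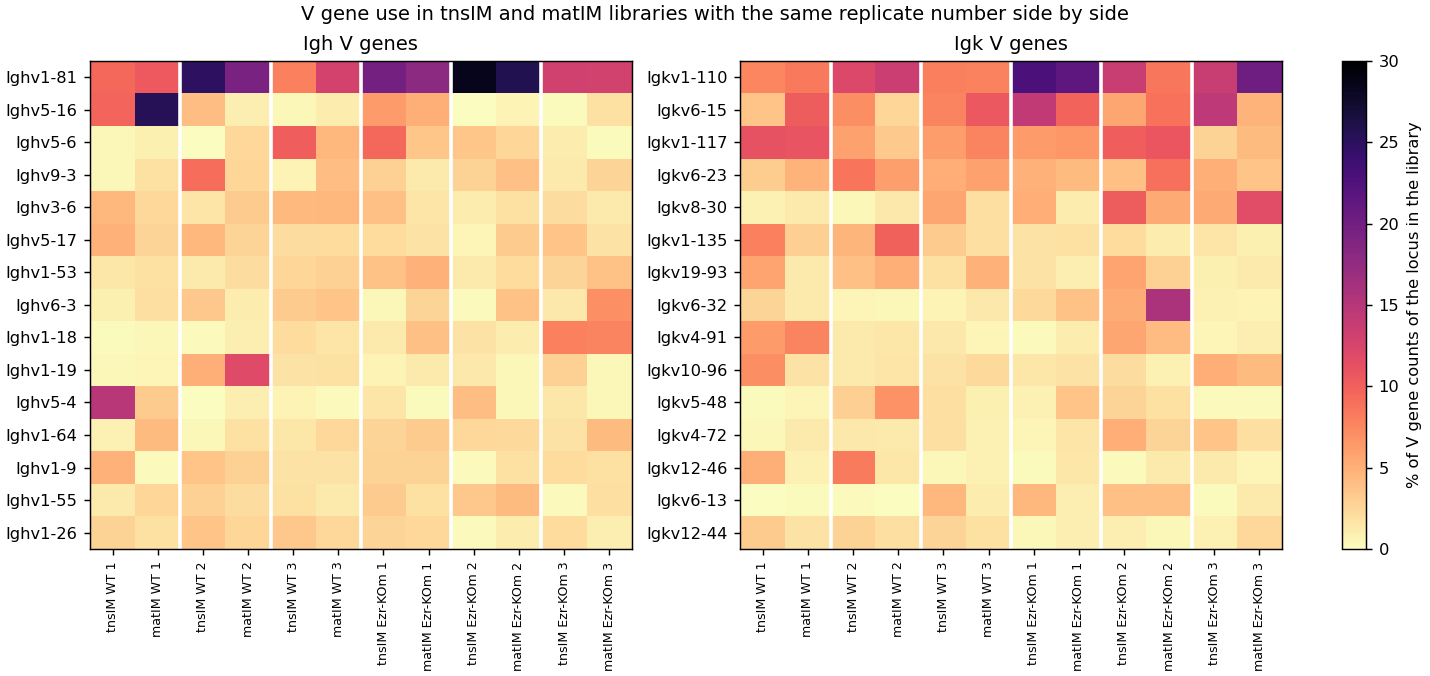
Share of the V gene counts of a locus in each tnsIM and matIM library, as colour from 0 to 30%, for the Igh (left) and Igk (right) V genes with the largest shares, 1 row per gene and same-numbered tnsIM and matIM libraries side by side. Ighv1-81 and Igkv1-110 recur across libraries, while Ighv5-16 stands out in WT replicate 1 (25.4% in matIMs), Ighv1-19 in WT replicate 2 (11.9%) and Igkv6-32 in Ezr-KOm replicate 2 (15.8%).

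V genes varied far more between replicates than other genes. The median SD of log2 CPM over 3 replicates was 1.22 for V genes in WT matIMs and 1.38 in Ezr-KOm matIMs, against 0.257 and 0.239 over all genes tested. The gap remained among genes that were not scarce: for V genes with a mean over 1 CPM the median SD was 1.13 (124 genes) and 1.24 (109 genes), and for other genes between 1 and 256 CPM it was 0.216 and 0.196. The constant regions and Jchain lay between, at 0.411 and 0.763.

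Markers of B cells were higher in matIMs than in moMs, as the immunoglobulin genes were. The 12 genes of the B cell list summed in WT to 17.6 to 26 CPM for moMs, 80.6 to 120 CPM for tnsIMs and 225 to 320 CPM for matIMs. All 12 were higher in every matIM library than in every moM library in both genotypes, where 22.2% (WT) and 20.7% (Ezr-KOm) of all genes tested were. Fcer2a did not rise from tnsIMs to matIMs, with 17.3 to 39.7 CPM in WT tnsIMs and 8.62 to 14.5 CPM in WT matIMs. Of the defining markers, 3 were near 0 in WT moMs: Cd79a, the signalling chain of the B cell receptor, was at 0.08 to 0.4 CPM, Ms4a1 (CD20) at 0 to 0.4 CPM and Pax5, the B lineage transcription factor, at 0 to 0.04 CPM. In WT matIMs they were at 46.3 to 72.5, 27.3 to 42 and 0.85 to 2.13 CPM. Other listed genes were not near 0 in WT moMs, with Cd79b, the partner of Cd79a, at 7.45 to 12.2 CPM, Bank1 at 4.67 to 7.4 CPM and Cd22 at 2.67 to 3.54 CPM. The 9 genes of the plasma cell list summed to 1010 to 1180 CPM in WT moMs and 886 to 972 CPM in WT matIMs. Of these, 5 were higher and 2 lower in every WT matIM library than in every WT moM library. Over all genes tested 22.2% were higher and 19.3% lower, so the number lower was near that share. The lower ones were Sdc1 (51.2 to 60 CPM in moMs, 32.7 to 49 CPM in matIMs) and Xbp1 (692 to 832 CPM, 507 to 553 CPM). Among the higher ones, Mzb1, a chaperone of antibody assembly, and Tnfrsf17 (BCMA) had 0 counts in all 6 moM libraries, and in WT matIMs they were at 1.79 to 4.74 and 1.53 to 1.92 CPM. The part of B and plasma cells among the sorted cells in these levels was not tested.

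Relative to Cd79a, Ighm was far higher in moMs. Each Cd79a count came with 5.5 to 8.64 Ighm counts in WT tnsIMs and 5.08 to 5.82 in WT matIMs, but with 235 to 1960 in WT moMs and 124 to 239 in Ezr-KOm moMs. For Ighd the ratio was 0.373 to 0.732 in WT matIMs and 1.29 to 3.5 in WT moMs. The moM ratios rest on few Cd79a counts, and the levels of Cd79b and Bank1 in WT moMs overlapped those in WT tnsIMs (9.88 to 15.5 and 5 to 8.58 CPM).

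Ezr-KOm replicate 3 stood apart among matIMs. It had the lowest Igha (619 CPM), Jchain (124 CPM) and Mzb1 (0.55 CPM) and the highest Ighd (61.9 CPM) and B cell list sum (369 CPM) of the 6 matIM libraries. The tnsIM library of the same number had the highest Ighd (30.8 CPM) and B cell list sum (183 CPM) of the 6 tnsIM libraries. Its counts of Igha per Ighd count were 10, against 39.2 to 99.5 in WT matIMs and 40.7 to 60.3 in the other Ezr-KOm matIM libraries.

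**Figure D4:**
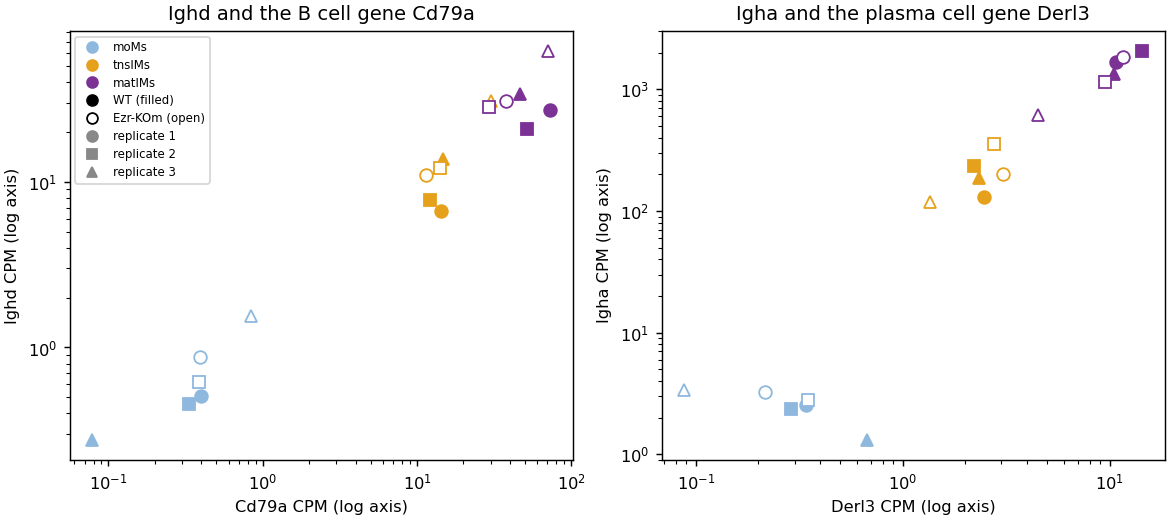
Ighd CPM against CPM of the B cell gene Cd79a (left) and Igha CPM against CPM of the plasma cell gene Derl3 (right), all on log axes, with 1 point per library, populations by colour, WT filled, Ezr-KOm open and replicates by shape. Libraries of moMs lie at the lower left and matIMs at the upper right, and Ezr-KOm replicate 3 of the matIMs has the highest Ighd (61.9 CPM) and the lowest Igha (619 CPM) of the 6 matIM libraries.

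Genes that work with antibody were examined as fixed lists. Of 13 genes of the B cell receptor complex and its signalling, 8 were higher and 4 lower in every WT matIM library than in every WT moM library, as were 22.2% and 19.3% of all genes tested. Those higher included Cd79a and Blnk (5.92 to 6.77 CPM in moMs, 56.9 to 67.6 CPM in matIMs), and those lower included the kinases Lyn and Syk, which myeloid cells also use. Among 9 listed genes of assembly, switching and transcription in the table, Pou2af1 went from 0.04 to 0.08 CPM in WT moMs to 13.2 to 17.6 CPM in WT matIMs, while the libraries of the 2 populations overlapped for its DNA-binding partners Pou2f1 and Pou2f2 (10 to 10.4 and 37.7 to 49.9 CPM in moMs, 10 to 12.3 and 34.1 to 38.6 CPM in matIMs). Of 5 genes of antibody transport and binding, the IgM receptor Fcmr and the neonatal Fc receptor Fcgrt were higher in WT matIMs (13.1 to 18.7 and 125 to 128 CPM) than in WT moMs (0.11 to 0.47 and 57.1 to 72.8 CPM), and Pigr, the epithelial carrier of polymeric IgA, was highest in tnsIMs (6.34 to 18 CPM in WT), as was the epithelial list sum (1010 to 1970 CPM, against 126 to 178 CPM in WT matIMs).

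Several lists that could mark other cells in the gates moved with the populations too. The mature dendritic cell list (Ccr7, Fscn1 and 4 others) went from 54 to 64.8 CPM in WT moMs to 5040 to 6680 CPM in WT matIMs, with 6 of 6 genes higher. The sum of the T and NK cell list was 23.7 to 35.7 CPM in WT moMs and 33.1 to 40.5 CPM in WT matIMs, that of the plasmacytoid dendritic cell list 155 to 171 and 178 to 225 CPM, that of the B-1 cell list 35.7 to 46 and 47 to 65.2 CPM, that of the neutrophil list 447 to 488 and 261 to 357 CPM and that of the alveolar macrophage list 5200 to 6510 and 412 to 517 CPM. The fall of the alveolar macrophage sum was that of Chil3, with a mean of 5900 CPM in WT moMs and 338 CPM in WT matIMs. Of that list, 5 of 6 genes were higher in every WT matIM library than in every WT moM library, and 1 was lower. In the neutrophil list 3 of 6 genes were higher and 1, Csf3r, was lower (means of 389 and 129 CPM). Over all genes tested, 22.2% were higher and 19.3% lower in every WT matIM library than in every WT moM library. The part of all these lists in the immunoglobulin levels was not tested.

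The values that chose these genes were their weights on the first principal component of the 500 most variable genes, which held 68.8% of the variance. Of those 500 genes 154 were immunoglobulin genes, all with the sign of matIMs, and together they held 46% of the squared weight. Igkv1-110 ranked 1, Ighv1-81 2, Iglv1 4, Jchain 6 and Igha 7, and the lowest-ranked were Ighv1-77 (384) and Igkv1-133 (389). When the immunoglobulin genes were left out, 58.9% of the variance lay on the first component and WT tnsIMs stood at 49.2% of the way from moMs to matIMs, against 50.9% with them.

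Ezrin loss gave no immunoglobulin gene a difference that passed an adjusted p of 0.05 in edgeR's quasi-likelihood test over the 15811 genes, in any population. At that threshold 0 of 169 were called in moMs, tnsIMs and matIMs, where 0.171%, 0.164% and 0.152% of all genes were, and 4, 31 and 34 had an unadjusted p under 0.05, where 3.74%, 3.24% and 3.84% of all genes had. DESeq2 called 0, 3 and 1 at its adjusted p, and its share over all genes is not given here. The study's own rule is looser, an unadjusted p under 0.05 with a log2 fold change beyond 0.75 in either direction. By that rule 4 genes were called in moMs, 31 in tnsIMs and 33 in matIMs, which was 18.3% and 19.5% of the genes tested in the latter, against 2.51%, 1.83% and 2.4% of all genes. Most of the immunoglobulin genes had no counts in moMs, so their moM numbers cannot be compared with the shares over all genes. In tnsIMs and matIMs the background is unlike too. There the median SD of log2 CPM between replicates was 1.06 to 1.38 for V genes and 0.239 to 0.327 over all genes. The part of this spread in the larger shares was not tested.

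Directions differed between populations. In matIMs 28 called genes were lower and 5 higher in Ezr-KOm, where 0.987% and 1.41% of all genes were. In tnsIMs 14 were lower and 17 higher, where 0.759% and 1.08% were. The median log2 fold change of the 169 was -0.67 in matIMs and 0.13 in tnsIMs, beside -0.0014 and 0.002 over all genes. It was 0 in moMs, where most of these genes had no counts. Log2 changes above 0 were seen for 50 of the 169 in matIMs, 88 in tnsIMs and 41 in moMs, beside 49.8%, 50.4% and 50.5% of all genes. The moM number cannot be read against its share, because few of these genes had counts there. Of the 199 genes, 183 in WT and 182 in Ezr-KOm had at most 3 counts in every moM library. In matIMs 14 of the 169 were lower in every Ezr-KOm library than in every WT library (5.12% of all genes) and 0 were higher in every one (5.03%). In tnsIMs 5 were lower (2.76%) and 14 higher (3.05%), and in moMs 0 were lower (4.07%) and 4 higher (4.45%). The limit set by low counts holds for these moM numbers too. Between matIMs and tnsIMs, 17 genes had an unadjusted p under 0.05 for the difference of the genotype effects, where 1.16% of all genes had, and 0 passed an adjusted p of 0.05 in edgeR, as for all genes. For tnsIMs against moMs and for matIMs against moMs 5 genes each had an unadjusted p under 0.05, where 1.47% and 1.7% of all genes had, and 3 of the former with the replicate number as a block. Differences against moMs rest on the moM effects and carry the same limit.

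**Figure D5:**
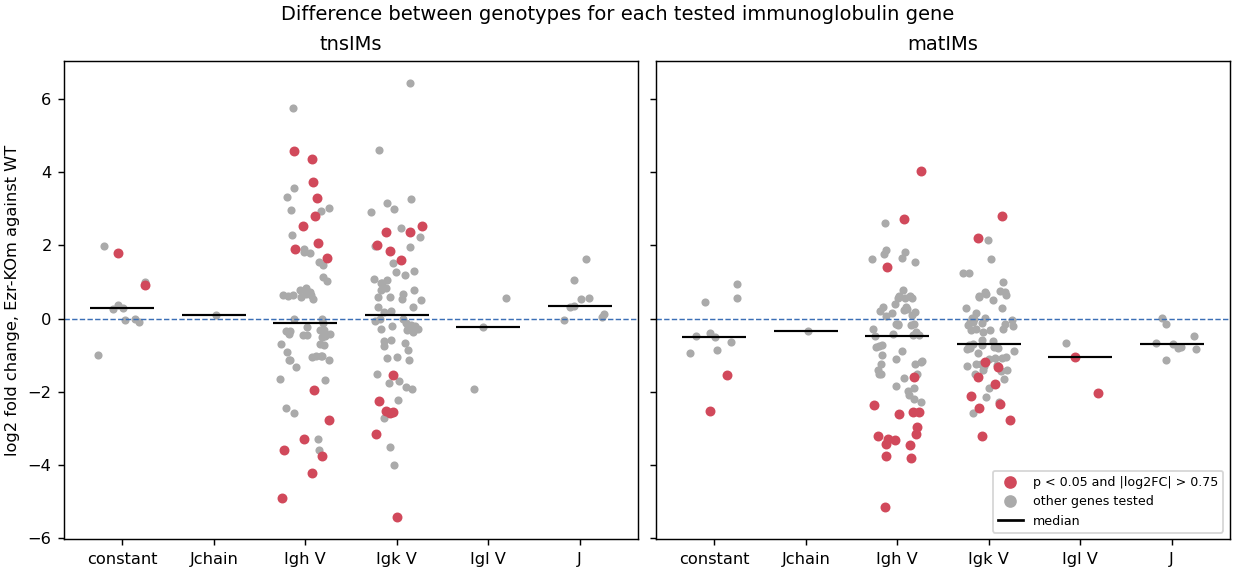
log2 fold change of Ezr-KOm against WT (y axis) for each of the 169 immunoglobulin genes tested, in tnsIMs (left) and matIMs (right), by kind of gene along the x axis, with genes past the study's rule in red and a line at the median of each kind. In matIMs 28 red points lie below 0 and 5 above, and in tnsIMs 14 below and 17 above.

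The calls were nearly all V genes, 29 of 31 in tnsIMs and 31 of 33 in matIMs, and many rested on few libraries. In matIMs 8 of the 33 had over 80% of the higher group's CPM in 1 library, and in tnsIMs 6 of 31, while 9 of the tnsIM calls had a lower group at or under 3 counts. All 4 moM calls, 2 higher and 2 lower (1.55% and 0.961% of all genes), were of that last kind. Ighg1 had 66, 0 and 0 counts in WT moMs and 0 in Ezr-KOm, Igkv6-23 had 0 counts in WT and 1, 1 and 35 in Ezr-KOm, Igkv2-109 had 0 in WT and 0, 0 and 12 in Ezr-KOm, and Igkv3-4 had 2, 0 and 1 in WT and 0 in Ezr-KOm. These 4 get no fold change.

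Igha, Igkc, Ighm and Jchain were not called by the rule in matIMs. Igha had a log2 fold change of -0.49, Ezr-KOm against WT, with a 95% interval of -1.25 to 0.27 that holds a fall beyond 0.75 as well as a small rise. That of Igkc was -0.39 (SE 0.45) and that of Jchain -0.35 (SE 0.39). Without Ezr-KOm replicate 3 the Jchain value was 0.02. Ighm had a log2 change of -0.64 (SE 0.3, unadjusted p 0.0478, adjusted p 1 in edgeR), short of the study's fold limit, and of -1.05 without Ezr-KOm replicate 3. In moMs, the population in which Ighm dominated, its log2 change was -0.59 (SE 0.3, edgeR unadjusted p 0.0658, adjusted p 1), and -0.81 with an unadjusted p of 0.0173 without WT replicate 1.

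Ighg3, the constant region of IgG3, had the smallest p of the immunoglobulin genes in matIMs. WT matIM libraries held 177, 293 and 58 counts and Ezr-KOm matIM libraries 56, 29 and 21, so every Ezr-KOm library was below every WT library. The log2 change was -2.53 (SE 0.61, unadjusted p 0.000906, adjusted p 0.281 in edgeR). In tnsIMs the counts were 4, 1 and 4 in WT and 5, 19 and 21 in Ezr-KOm, the opposite direction, with a log2 change of 1.8 (SE 0.81, unadjusted p 0.0442, adjusted p 1 in edgeR). With the replicate number as a block the tnsIM p was 0.0576, and leaving out Ezr-KOm replicate 3 gave a log2 change of 1.17. Ighd met the study's rule in tnsIMs, at 0.92 (SE 0.4, unadjusted p 0.0322, adjusted p 1 in edgeR), and at 0.33 without Ezr-KOm replicate 3.

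Among lambda chain genes, Iglc3, Iglv1 and Iglv3 met the study's rule in matIMs, all lower in Ezr-KOm. Iglc3, a constant region, was called with a log2 change of -1.54 (SE 0.49, unadjusted p 0.00545, adjusted p 0.768 in edgeR), though without WT replicate 1, which held 36.9 CPM, the change was -0.55. Iglv1 was at 68.1, 44 and 19.1 CPM in Ezr-KOm against 113, 70 and 90.1 CPM in WT, every library below every WT library, with a log2 change of -1.06 (unadjusted p 0.0232, adjusted p 1 in edgeR). Its value was -0.69 without Ezr-KOm replicate 3. Iglv3 was called only through WT replicate 2: its change was -2.03, and 0.65 without that library, and with the replicate block its p was 0.0894. Iglc1 and Iglc2 had values of -0.84 and -0.94 and were not called. In the Gencode M39 annotation Iglc1, Iglc3 and Iglv1 overlap a long noncoding RNA gene on the opposite strand.

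Of the V genes with the smallest p in matIMs, those lower in Ezr-KOm were Igkv1-135 and Ighv3-6. Ighv3-6 was at 13.1, 20.9 and 17.5 CPM in WT and at 8.35, 6.39 and 2.22 CPM in Ezr-KOm, with a log2 change of -1.6 (SE 0.45, unadjusted p 0.0024, adjusted p 0.499 in edgeR). Igkv1-135, the kappa gene whose octamer is printed above, was at 18, 94 and 10.9 CPM in WT and at 13.4, 6.6 and 2.35 CPM in Ezr-KOm, with overlap. Its log2 change was -2.45 (SE 0.68, unadjusted p 0.00222, adjusted p 0.488 in edgeR), and -0.94 without WT replicate 2, no longer called.

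Of the V genes with the smallest p, those higher in Ezr-KOm matIMs each had a smaller change when 1 library was left out. Igkv6-32 had a log2 change of 2.8 (SE 0.98) and 1.34 without Ezr-KOm replicate 2, Igkv4-68 one of 2.2 (SE 0.84) and 0.25 without Ezr-KOm replicate 1, and Ighv1-47 one of 4.04 (SE 1.52) and -0.1 without Ezr-KOm replicate 1. Ighv1-47 was at 12, 0.41 and 0.04 CPM in Ezr-KOm and at 0.35, 0.21 and 0.19 CPM in WT. With the replicate block, Igkv6-32 (p 0.0876) and Ighv1-47 (p 0.0572) were no longer called. The leading V genes of matIMs gave small values, with log2 changes of -0.16 for Ighv1-81 (95% interval -1.36 to 1.04), 0.29 for Igkv1-110 (-0.74 to 1.32) and -0.15 for Igkv1-117 (-1.23 to 0.94).

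In tnsIMs the V genes with the smallest p were Igkv17-127, Igkv3-4 and Ighv10-1, higher in Ezr-KOm, and Ighv6-3, Igkv12-44 and Ighv1-74, lower. Igkv17-127 was at 0.29, 0.38 and 0.35 CPM in WT and at 0.96, 0.88 and 4.19 CPM in Ezr-KOm, with a log2 change of 2.53 (SE 0.63, unadjusted p 0.00123, adjusted p 0.36 in edgeR), and of 1.45 without Ezr-KOm replicate 3. Igkv3-4 was at 0.42, 0.51 and 0.9 CPM in WT and at 1.79, 2.27 and 2.63 CPM in Ezr-KOm, with a log2 change of 1.85 (SE 0.48, adjusted p 0.366 in edgeR). Neither group overlapped the other in either gene. Ighv10-1 changed by 2.81 (SE 0.8), Ighv6-3 by -1.94 (SE 0.54) and Igkv12-44 by -1.54 (SE 0.48). Without Ezr-KOm replicate 2 the value of Ighv10-1 was 1.75 and that of Igkv12-44 was -2.39. Ighv1-74 changed by -4.23 through 48 counts in WT replicate 1 and by -0.38 without that library.

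Both populations called 7 genes, 6 of them in the same direction: Ighv1-18, Ighv5-12 and Igkv4-68 were higher and Ighv1-66, Igkv12-44 and Igkv8-19 lower in Ezr-KOm, and Ighg3 differed. The share of all genes called in both is not given, so this overlap has no background beside it. As V gene shares were most alike between same-numbered libraries in 5 of 6 cases, the calls in tnsIMs and matIMs are not separate observations of a genotype difference. Among the V genes known from B-1 cells that bind phosphatidylcholine, Igkv4-91 was at 45.7, 14 and 3.05 CPM in WT matIMs and at 8.74, 25.2 and 2.72 CPM in Ezr-KOm matIMs. Igkv14-126 was at 2.57 to 14.3 CPM in WT matIMs and 1.38 to 3.37 CPM in Ezr-KOm matIMs, and Ighv11-2 at 0.19 to 3.71 and 0.54 to 1.09 CPM. In matIMs, Ighv12-3 (0.48 to 3.81 CPM in WT, 0.17 to 0.55 CPM in Ezr-KOm) had a log2 change of -2.56 (SE 0.77) and its partner Igkv4-91 one of -0.77 (SE 1.03). Ighv11-2 had one of -1.5 (SE 0.92) and its partner Igkv14-126 one of -1.79 (SE 0.56). Ighv12-3 and Igkv14-126 were called by the study's rule (unadjusted p 0.00509 and 0.00609, adjusted p 0.745 and 0.77 in edgeR).

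No B cell or plasma cell marker met the study's rule in tnsIMs or matIMs. In moMs the complement receptor Cr2 did, at most 0.17 CPM in any moM library, and so did Pigr among the transport genes (0.08 to 0.28 CPM in WT, 0.22 to 0.69 CPM in Ezr-KOm), both at an adjusted p of 1 in edgeR. The amount of Ighd per Cd79a count, a ratio within B cell genes, was 0.373 to 0.732 in WT matIMs and 0.809 to 0.966 in Ezr-KOm matIMs, without overlap, and Ighm per Cd79a count was 5.08 to 5.82 and 4.12 to 4.79. In tnsIMs both ratios overlapped between genotypes (Ighd 0.464 to 0.934 in WT and 0.861 to 1.02 in Ezr-KOm, Ighm 5.5 to 8.64 and 4.5 to 5.71). These ratios were chosen with the data known and were given no test.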

How the data were processed

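Total RNA of 18 sorted libraries was reverse transcribed with SMART-Seq v4, tagged with Nextera XT and sequenced as paired ends. The deposited table holds counts: the authors aligned reads to GRCm39 with STAR 2.7.9a and Gencode M29 and counted uniquely mapped reads per gene, so near-identical V genes and gamma constant regions can lose or split reads. The strand setting is not given in the sources used here. The members and gene lists were chosen with earlier results of these data known.

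From the counts, edgeR 4.0.16 in R 4.3.3 gave TMM factors, CPM and quasi-likelihood tests on 15811 genes kept by filterByExpr (minimum count 10), all 18 libraries in 1 fit by group, two-sided, with Benjamini-Hochberg adjustment over all genes. Depth was 16512783 to 48460995 counts, and a level of 3 counts was taken as the floor. Counts of 15811 genes in 18 libraries were simulated from each gene's mean over all libraries. Of 200 genes over 1 CPM changed by 2 on the log2 scale in Ezr-KOm matIMs, 91.5% were recovered. Of the calls, 3.17% were false. The simulation did not use the levels of each population, so it does not give the recovery of immunoglobulin genes. DESeq2 1.42.0, upper-quartile scaling, no filter, separate fits per population, a replicate block and leaving out each library were the alternatives.

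Libraries with the same replicate number were more alike. Deviations from group means of WT and Ezr-KOm libraries of 1 population correlated at 0.102 to 0.316 for the same number and at -0.238 to 0.0508 for different numbers. The main fit did not use this pairing. Its p-values are unpaired, also those for differences of genotype effects between populations, whose libraries would share mice. The replicate block was run as an alternative only. Exon lengths and overlaps between genes came from Gencode M39 (199 of 199 genes matched). The reads were counted on another release, M29, in which the overlaps were not checked. Genes named are Jchain and all constant regions, the V genes with the largest mean CPM per locus (4, or all 3 lambda genes), the leading J and D segments, the V genes of phosphatidylcholine-binding B-1 cells, and the 3 genes with the smallest p per direction and contrast. Others were named for a count, an octamer or a large share in 1 library after their values were seen. A few listed genes and 1 sequence are not reported here.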

Additional observations from a re-analysis of the deposited data

Results flagged for a closer look

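For 2 genes every Ezr-KOm library moved one way against every WT library in tnsIMs and every one the opposite way in matIMs. Ighg3 had a log2 change of 1.8 in tnsIMs and -2.53 in matIMs, and the difference of the 2 effects was -4.32 (SE 1, unadjusted p 0.000686, adjusted p 1 in edgeR). Igkv3-4 had a log2 change of 1.85 in tnsIMs and -0.71 in matIMs, at 1.59, 1.28 and 0.93 CPM in WT matIMs and 0.54, 0.86 and 0.92 CPM in Ezr-KOm matIMs, with a difference of -2.56 (SE 0.67, unadjusted p 0.00141, adjusted p 1 in edgeR). Neither difference passed the adjusted threshold, and Ighg3 in WT tnsIMs rests on at most 4 counts per library.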

How the results depend on the processing

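Counts by the study's rule were 4 in moMs, 31 in tnsIMs and 33 in matIMs. No share over all genes is given for the alternative settings or for fits without 1 library, so their counts have no background beside them. DESeq2 gave 9 in moMs and 16 in matIMs, and fits of each population alone gave 1 in moMs and 18 in tnsIMs. Without a filter 5, 35 and 43 were called, with upper-quartile scaling 5, 30 and 31. At an adjusted p of 0.05, where edgeR called 0, DESeq2 called 3 in tnsIMs (Igkv17-127, Igkv3-4 and Ighv6-3) and 1 in matIMs (Ighg3). Differences of genotype effects at an unadjusted p under 0.05 were 5 for tnsIMs against moMs (9 with DESeq2) and 5 for matIMs against moMs (11 with DESeq2). With the replicate block, the rule called 4, 37 and 41 genes, of which 3, 28 and 25 were among those called without it, and the difference for tnsIMs against moMs fell from 5 genes to 3. Beside the named genes given in the report, the block changed no other call among those named.

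Leaving out 1 library, the rule gave 1 to 6 genes in moMs (1 without Ezr-KOm replicate 3, 2 without WT replicate 1), 21 to 36 in tnsIMs and 24 to 52 in matIMs (52 without Ezr-KOm replicate 1). Adjusted calls were 0 to 1 in tnsIMs (Igkv8-30 without WT replicate 3) and 0 to 1 in matIMs (Igkv4-86 without WT replicate 1), and 0 in moMs. Direction reversed for Ighv1-47 (-0.1 without Ezr-KOm matIM replicate 1, range -0.1 to 4.64), Jchain (0.02 without Ezr-KOm matIM replicate 3, range -0.76 to 0.02) and Iglv3 (0.65 without WT matIM replicate 2, range -2.74 to 0.65). Summed CPM ranged from 4380 to 5540 in WT and 2890 to 4420 in Ezr-KOm matIMs.

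Without Ighm, moM sums were 9.94 (WT) and 10.8 CPM (Ezr-KOm), and without Igha the WT matIM sum was 3280 CPM. The first component held 58.9% of the variance without the immunoglobulin genes, 57.8% also without B and plasma cell markers (added after seeing the data), 41% over all genes tested and 67.1% with a prior count of 0.5. Ezr-KOm tnsIMs, at 55.5% of the way from moMs to matIMs, then stood at 50.6%, 48.4%, 42.3% and 61%, and WT tnsIMs at 40.2% over all genes tested. The kappa share in Ezr-KOm tnsIMs was 91.7% from V counts and 90.6% per kilobase (added after seeing the data). The causes were not tested. In moMs the depth allows no statement on single V genes.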
